A study of Sus scrofa with 8 samples.

Results

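Mucosa of the experimental neobladder was compared here with mucosa of the control neobladder across all expressed genes of the pig. The members are 4 of the 8 libraries of the series, 2 labelled as neobladder mucosa of the experimental group (MN-Exp) and 2 labelled as neobladder mucosa of the control group (MN-Ctrl). They were taken by their labels alone, with no measured value used. All animals were Guizhou minipigs aged 8 months, with no transgene or drug named, and the other 4 libraries came from native bladder mucosa and from normal peritoneum of the same strain and age. Per the series title, the study replaced the mucosa of an ileal neobladder with the animal's own peritoneum. The labels do not say how the control neobladder was lined or how long after surgery tissue was taken. They also do not say whether the replicates of a group were separate animals, so p-values measure the spread between these samples, which may be technical. Both neobladder groups share an operated ileal segment as the title describes it, so no unoperated ileum stands beside them.

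A neobladder is a urinary reservoir made from a loop of ileum, whose lining of absorptive enterocytes, goblet cells and hormone cells keeps exchanging solutes with urine. Urothelium, the lining of the bladder, is a stratified barrier that limits this exchange and senses stretch. Peritoneum is a single layer of mesothelium over connective tissue. Which lining a tissue carries can be read from its receptors, transcription factors, transporters and enzymes as well as from structural markers, and these families are described below.

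The labels were first set against defining markers. Levels are in CPM, the counts of a gene relative to the library total after scaling by TMM (the trimmed mean of M-values method), and each pair of values gives replicate 1 and then replicate 2. UPK2, a uroplakin of the urothelial surface, had 334 and 1142 CPM in experimental mucosa, against 1.96 and 5.62 CPM in control mucosa. IVL, the cornified-envelope protein involucrin, had 2057 and 4567 CPM in experimental mucosa, against 7.62 and 19.1 CPM in control mucosa. SLC14A1, the urea transporter of urothelium, had 142 and 163 CPM in experimental mucosa, against 0.762 and 0 CPM in control mucosa. The 3 markers of the urothelial side were high in both experimental libraries and low in both control libraries. FABP6, the ileal bile acid binding protein, had 29.3 and 29.8 CPM in experimental mucosa, against 31350 and 157500 CPM in control mucosa. CDX2, a homeobox factor of the gut epithelium, had 0 counts in both experimental libraries and at 50.6 and 87.5 CPM in control mucosa. GCG, the proglucagon gene of hormone cells, was likewise at 0 counts in both experimental libraries and at 285 and 658 CPM in control mucosa. The control mucosa therefore carried ileal markers and the experimental mucosa carried bladder markers. Of 10 listed mesothelial markers 4 were tested, so most of that list was not assessed. These 4 summed to 0.593 and 0.464 CPM in experimental mucosa and 3.05 and 5.62 CPM in control mucosa. In normal peritoneum they summed to 42.7 and 65.2 CPM.

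Experimental libraries held 10280848 and 9920502 counts and control libraries 10956114 and 11884868, within a range of 7939291 to 11884868 over the series. The 10 most abundant genes took 7.27 and 6.18% of counts in experimental mucosa and 16.5 and 22.9% in control mucosa, and TMM scaled control replicate 2 most, with a factor of 0.449. On the log2 CPM scale the 2 experimental libraries correlated at r = 0.967 across genes and the 2 control libraries at 0.92, while experimental and control libraries correlated at 0.734 to 0.798. Experimental and native bladder libraries correlated at 0.943 to 0.952. Genes are not independent replicates, so these values are descriptions.

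Of 16549 genes tested, 3584 differed between experimental and control mucosa (21.7%) at an adjusted p under 0.05 (edgeR quasi-likelihood test with Benjamini-Hochberg adjustment). Of these, 1720 were higher (10.4%) and 1864 lower (11.3%) in experimental mucosa. The smallest change called was 1.05 on the log2 scale. The median of all tested genes was 0.11, a shift against which the families below are read. With library totals alone as the scale the median was 0.89, and 2791 genes were then higher and 830 lower, so 77.1% of calls were higher against 48%. Leaving out 1 library gave 1798 calls without experimental replicate 1, 1292 without experimental replicate 2, 6424 without control replicate 1 and 3407 without control replicate 2. A total of 1153 genes were called in all 4 of these fits, 586 higher and 567 lower. Each gene described from the 30 largest changes onward is 1 of these unless the text says otherwise. With library totals alone, 6 genes of a set of 146 named below kept their direction but lost their call (IGF1, IL34, ATP1B1, MSRA, ALOX5 and LTA4H, adjusted p = 0.0537 to 0.12). In bulk tissue, fewer cells of a type and less RNA per cell cannot be told apart, and this holds for every gene described.

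Gene length moved with the comparison. The log2 ratio of control replicate 1 to control replicate 2 rose with the genomic span of the gene (Spearman's rho = 0.318 across 11643 genes), against rho = 0.118 between the experimental libraries, 0.082 in native bladder and -0.01 in peritoneum. Genes with a span were put into 5 equal bins by span. In the shortest bin, 9.32% were called higher and 16.4% lower in experimental mucosa. In the longest bin, 15.5% were higher and 7.64% lower. With an offset that removes the trend within each library, the shares were 13.1% higher and 14% lower in the shortest bin and 13.4% higher and 11.6% lower in the longest. Of 2593 called genes with a known span, 2452 were also called with the offset (94.6%). So were all 144 genes with a span in the set of 146 named below. That set leaves out S100A8 and MMP9, whose calls were lost in some fits, and COL1A2, which was not called. It holds called genes only, picked mostly for a small p or a large change, which favours their keeping the call. Counts of members called in 1 direction were compared over the 75 families and 14 marker lists. With the offset, 159 of 178 such counts were unchanged, at 0 included, or stayed within 1.5 times their value. Growth factor receptor kinases, for example, had 12 higher and 3 lower with the offset, against 14 and 1 without it.

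**Figure D1:**
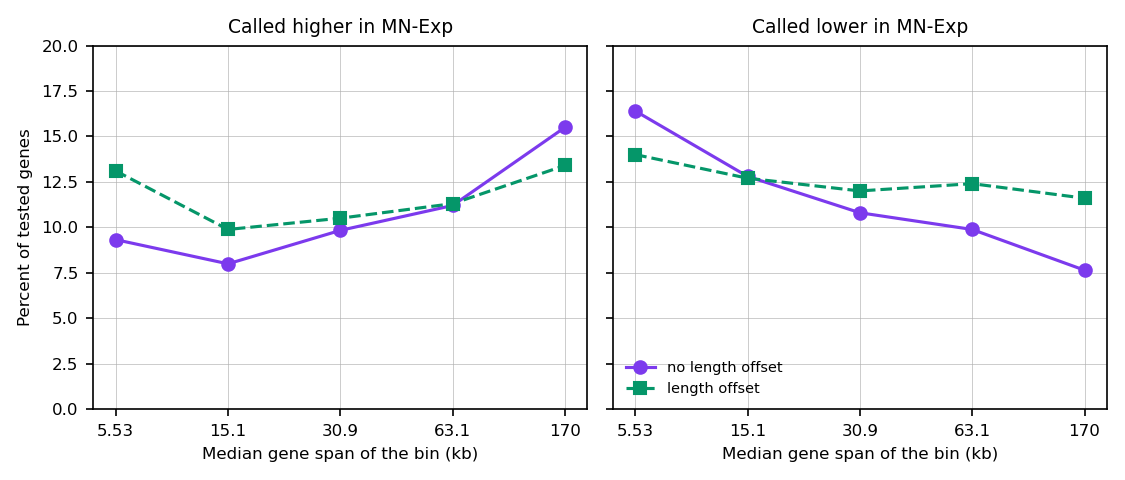
Percent of tested genes called higher (left panel) and lower (right panel) in MN-Exp against MN-Ctrl, in 5 equal bins of genomic gene span from shortest to longest, without and with an offset for gene length. Without the offset the share called higher reaches 15.5% in the longest bin and the share called lower reaches 16.4% in the shortest, and with it the bins lie closer together.

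Cell type lists moved with the comparison as well. Of 7 tested smooth muscle markers 4 were higher and none lower, and their summed level was 5240 and 6000 CPM in experimental mucosa against 1000 and 1030 CPM in control mucosa. Endothelial markers summed to 702 and 619 CPM in experimental and 323 and 231 CPM in control mucosa, with 2 of 7 higher (28.6%). Fibroblast markers summed to 3980 and 4100 CPM in experimental and 2610 and 1250 CPM in control mucosa. Only 1 of 8 was higher (12.5%), below the 21.7% of all genes called. These 3 lists summed to more in the experimental libraries, though a sum follows its most abundant members. Adipocyte markers summed to less, at 11.7 and 8.62 CPM in experimental and 272 and 118 CPM in control mucosa, with 2 of 6 lower (33.3%). Their median log2 fold change was 0.2, against 0.11 for all genes, so the list as a whole was not lower. This sum too follows its most abundant members. Immune lists moved in both directions. Macrophage and myeloid markers had 4 of 7 lower, at 1590 and 1680 CPM in experimental against 3970 and 7980 CPM in control mucosa. T cell markers had 5 of 7 lower, at 238 and 157 CPM in experimental against 382 and 626 CPM in control mucosa. The lower calls of the T cell list and of the macrophage and myeloid list did not hold in all 4 fits that left out a library. B and plasma cell markers had 1 of 7 lower (14.3%), below the 21.7% of all genes called, and 0 with the length offset. Their sums were 2200 and 834 CPM in experimental against 3150 and 9190 CPM in control mucosa. Neutrophil markers had 3 of 5 higher, at 669 and 248 CPM in experimental against 94.2 and 42.7 CPM in control mucosa, and S100A8, a neutrophil alarmin, was at 0 counts in both control libraries, a call lost without experimental replicate 1, control replicate 1 or control replicate 2 (adjusted p = 0.0508 to 0.0999). The part of these cell types in the results below was not tested.

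The 30 largest changes among called genes of at least 5 CPM reached well beyond lining markers. CYP4B1, a monooxygenase of fatty acids and xenobiotics, stood at 1839 and 1285 CPM in experimental mucosa, against 2.18 and 5.62 CPM in control mucosa (log2 fold change 8.68 ± 0.91, adjusted p = 0.000167). The ± after a log2 fold change is its standard error. CRABP2, which carries retinoic acid inside cells, read 285 and 229 CPM in experimental mucosa, against 0.98 and 0.937 CPM in control mucosa (log2 fold change 8.04 ± 0.52, adjusted p = 2.43e-05). SLC9A4, a sodium-proton exchanger, was at 253 and 109 CPM in experimental mucosa, against 0.544 and 0.75 CPM in control mucosa. These 3 genes were abundant in both experimental libraries and close to 0 in both control libraries, and native bladder held a like level of CYP4B1, at 1527 and 1592 CPM. CRISP3, a secreted cysteine-rich protein, differed more between the experimental libraries, at 416 and 67.5 CPM, against 0.218 and 0.375 CPM in control mucosa. ZNF385B, a zinc finger gene on chromosome 15 (Sscrofa11.1, 85041947 to 85469112), had 14.8 and 25.8 CPM in experimental mucosa and 0 counts in control mucosa, at least 97.1-fold higher. CAPN6, a calpain that lacks a complete protease site, had 9.92 and 11.6 CPM in experimental mucosa and 0 counts in control mucosa, at least 51.9-fold higher. Such bounds set the empty group at 3 counts over its 2 libraries and cover counting error only.

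In the other direction, MS4A12, a membrane protein of intestinal surface epithelium, stood at 0.254 and 0.185 CPM in experimental mucosa, against 1464 and 2924 CPM in control mucosa (log2 fold change -13.20 ± 0.81, adjusted p = 2.43e-05). LYPD8, which in mice keeps flagellated bacteria off the gut epithelium, was at 1.36 and 1.02 CPM in experimental mucosa, against 4637 and 7385 CPM in control mucosa (log2 fold change -12.29 ± 0.81, adjusted p = 2.43e-05). FCN2, a ficolin of the lectin pathway of complement, read 0 and 0.464 CPM in experimental mucosa, against 1499 and 1660 CPM in control mucosa. All 3 were among the abundant transcripts of both control libraries and had almost no reads in either experimental library. SPINK1, a secreted trypsin inhibitor, fell to 0.848 and 1.02 CPM in experimental mucosa, against 1799 and 9154 CPM in control mucosa, where the replicates were far apart. SLC2A2, a low-affinity glucose carrier of enterocytes, was at 0 counts in experimental mucosa and at 109 and 50 CPM in control mucosa, at least 658-fold lower. ANKRD40CL was at 0 counts in experimental mucosa and at 43.1 and 140.5 CPM in control mucosa, at least 594-fold lower.

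Across the 75 gene families compared, 1966 genes were tested, of which 296 were higher and 308 lower, so 30.7% were called against the 21.7% of all genes. By class, 28.8% of ligands, 28.2% of receptors, 27.8% of transcription factors, 35.4% of transporters and 30.8% of metabolic genes were called. The balance differed between classes. Ligands had 28 higher and 12 lower and transcription factors 59 higher and 31 lower, whereas metabolic genes had 71 higher and 144 lower. With library totals alone the balance of metabolic genes turned to 108 higher and 51 lower. The same scale gave 2791 higher and 830 lower over all genes, so the direction of such counts depends on the scale. In the metabolic lists with the most lower calls, the median was also set against that of all genes. For arginine and related metabolism this difference was -0.94 under TMM and -1.02 with library totals. For the glutathione list it was -0.92 and -0.67, and for cholesterol synthesis and uptake -1.17 and -1.25. The lists carry no test of their own.

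**Figure D2:**
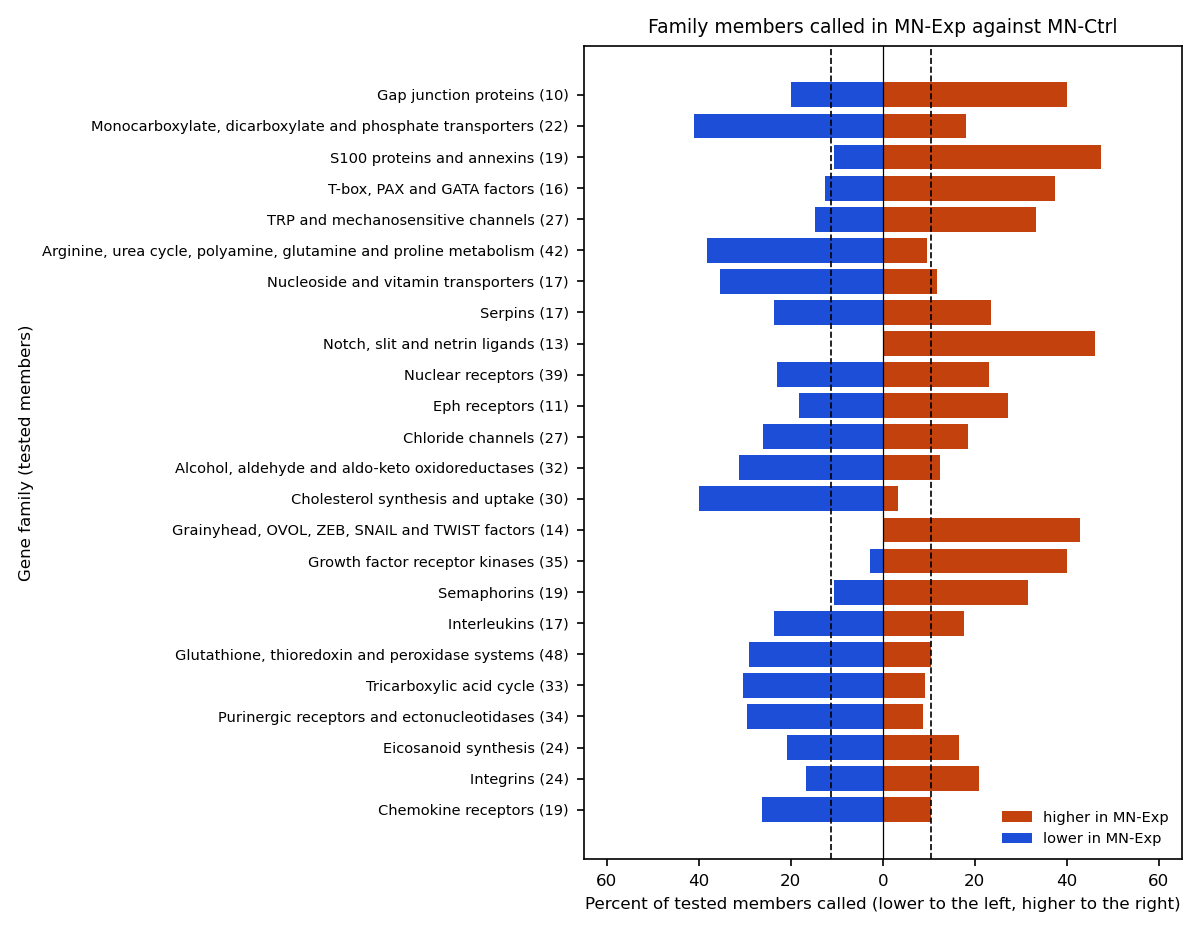
Percent of tested members called higher (bars to the right) and lower (bars to the left) in MN-Exp against MN-Ctrl, for the 24 families of 10 or more tested members with the largest share called. Dashed lines mark the shares among all tested genes, 10.4% higher and 11.3% lower, and the number beside each name counts its tested members.

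Guidance ligands were called mostly as higher. Of 13 Notch, slit and netrin ligands 6 were higher and none lower, with a median log2 fold change of 1.91 against 0.11 for all genes. Only 1 of the 6 calls held in all 4 fits that left out a library, and 4 were higher in the 4 neobladder libraries alone. DLK2, a noncanonical Notch ligand, stood at 53.1 and 50.2 CPM in experimental mucosa, against 0 and 0.375 CPM in control mucosa, a ratio of 376 with a 95% counting interval of 104 to 3100. JAG1, a canonical Notch ligand, read 37.3 and 50.1 CPM in experimental mucosa, against 13.5 and 2.06 CPM in control mucosa (log2 fold change 2.44 ± 0.64, adjusted p = 0.0222). SLIT2, a repellent for cells with ROBO receptors, was at 31.4 and 32.9 CPM in experimental mucosa, against 8.82 and 5.81 CPM in control mucosa (log2 fold change 2.12 ± 0.43, adjusted p = 0.0062). The 3 genes were higher in both experimental libraries, and DLK2 alone was near 0 in control mucosa. The call of JAG1 was lost without experimental replicate 1 (adjusted p = 0.0604) and without experimental replicate 2 (0.123), and that of SLIT2 without experimental replicate 2 (0.0512). Semaphorins had 6 higher and 2 lower of 19. SEMA3E, a secreted semaphorin that acts on endothelium, was at 10.3 and 14.7 CPM in experimental mucosa, against 0.653 and 0.75 CPM in control mucosa (log2 fold change 4.15 ± 0.66, adjusted p = 0.00176), and SEMA6D, a membrane-bound one, was at 1.02 and 1.11 CPM in experimental mucosa, against 87.5 and 24.4 CPM in control mucosa (log2 fold change -5.71 ± 0.66, adjusted p = 0.000298). These 2 moved in opposite directions. EFNA5 was the 1 ephrin called of 6, at 76.5 and 74 CPM in experimental mucosa, against 6.53 and 4.31 CPM in control mucosa (log2 fold change 3.78 ± 0.45, adjusted p = 0.000331).

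Cytokines and growth factors were divided. IL17B, of the interleukin 17 family, stood at 27.5 and 23.8 CPM in experimental mucosa, against 1.2 and 1.87 CPM in control mucosa (log2 fold change 4.09 ± 0.50, adjusted p = 0.000372). IL1A, an alarmin stored in barrier epithelia, read 44.1 and 73.7 CPM in experimental mucosa, against 8.93 and 10.3 CPM in control mucosa. IL34, a ligand of the macrophage receptor CSF1R, was lower, at 5.76 and 3.9 CPM in experimental mucosa, against 26.2 and 23.6 CPM in control mucosa (log2 fold change -2.36 ± 0.39, adjusted p = 0.00208). Interleukins thus had calls in both directions, 3 higher and 4 lower of 17, and 4 and 2 with library totals alone. None of 12 TNF superfamily ligands was called, with 0 calls by edgeR, 0 at an unadjusted p under 0.05 and 0 by DESeq2. IGFBP5, which binds insulin-like growth factors in the matrix, was at 184 and 176 CPM in experimental mucosa, against 14.7 and 13.7 CPM in control mucosa (log2 fold change 3.66 ± 0.45, adjusted p = 0.000385). IGF1 itself was lower, at 6.27 and 4.92 CPM in experimental mucosa, against 15.7 and 35 CPM in control mucosa (adjusted p = 0.00926). The IGF1 call was lost without experimental replicate 1 (adjusted p = 0.0537) and without experimental replicate 2 (0.102). Over all 139 ligands, 16 were higher and 6 lower without experimental replicate 1, and 9 and 3 without experimental replicate 2.

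Receptors of growth signals were called mostly as higher. Of 35 growth factor receptor kinases 14 were higher and 1 lower, with a median log2 fold change of 1.05. Of the 14 higher calls 3 held in all 4 fits that left out a library, and 5 members were higher without experimental replicate 1, 5 without experimental replicate 2 and 4 in the 4 neobladder libraries alone. FGFR2, a receptor of fibroblast growth factors in epithelium, stood at 37.8 and 28.8 CPM in experimental mucosa, against 9.8 and 7.12 CPM in control mucosa (log2 fold change 1.97 ± 0.37, adjusted p = 0.00456). IGF1R, the receptor of IGF1, read 20 and 21.6 CPM in experimental mucosa, against 6.32 and 3.56 CPM in control mucosa (log2 fold change 2.05 ± 0.40, adjusted p = 0.00511). MET, the receptor of hepatocyte growth factor, was at 38.4 and 42.1 CPM in experimental mucosa, against 8.93 and 2.06 CPM in control mucosa. ROS1, a receptor kinase, was the 1 lower member, at 0.593 and 0.278 CPM in experimental mucosa, against 24.5 and 13.5 CPM in control mucosa (log2 fold change -5.40 ± 0.76, adjusted p = 0.000854). TGFBR3, the co-receptor betaglycan that presents TGF-beta, reached 83.2 and 101 CPM in experimental mucosa, against 7.41 and 4.5 CPM in control mucosa (log2 fold change 3.94 ± 0.42, adjusted p = 0.000177). ITGB6, an integrin chain of epithelium that activates latent TGF-beta, reached 112 and 118 CPM in experimental mucosa, against 8.6 and 5.62 CPM in control mucosa (log2 fold change 4.0 ± 0.43, adjusted p = 0.000174). In plexins, neuropilins, Notch and other guidance receptors 6 of 22 were higher and 1 lower, and Eph receptors had 3 higher and 2 lower of 11. NOTCH3, the Notch receptor of mural cells, stood at 19.1 and 30.3 CPM in experimental mucosa, against 2.07 and 1.12 CPM in control mucosa (log2 fold change 3.89 ± 0.46, adjusted p = 0.000323), and NOTCH1 at 25.1 and 36.9 CPM in experimental mucosa, against 8.06 and 6.93 CPM in control mucosa. PLXNA2, a semaphorin receptor, was at 22.3 and 35.2 CPM in experimental mucosa, against 3.92 and 3 CPM in control mucosa. The calls of MET and NOTCH1 were lost without experimental replicate 2 (adjusted p = 0.0517 and 0.065).

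G protein-coupled receptors were called in both directions. ADGRG2, an adhesion receptor, stood at 59.8 and 100 CPM in experimental mucosa, against 0.109 and 0.75 CPM in control mucosa (log2 fold change 7.74 ± 0.73, adjusted p = 9.39e-05). ADGRG7, a relative known from intestine, was at 0.424 and 0 CPM in experimental mucosa, against 178 and 91.2 CPM in control mucosa (log2 fold change -9.19 ± 0.88, adjusted p = 9.95e-05). ADGRE3, a myeloid adhesion receptor in humans, was at 1.02 and 1.11 CPM in experimental mucosa, against 44.1 and 46.8 CPM in control mucosa, beside the lower myeloid markers. Of 22 adhesion receptors 5 were higher and 2 lower. F2R, the thrombin receptor, read 27.9 and 38.4 CPM in experimental mucosa, against 2.83 and 1.31 CPM in control mucosa, and F2RL2, another protease-activated receptor, 189 and 203 CPM in experimental mucosa, against 26.4 and 10.5 CPM in control mucosa. VIPR1, the receptor of vasoactive intestinal peptide, which drives gut secretion, was lower, at 1.19 and 2.6 CPM in experimental mucosa, against 85.6 and 36.5 CPM in control mucosa (log2 fold change -5.01 ± 0.62, adjusted p = 0.000396). HRH1, a histamine receptor, was at 6.36 and 7.51 CPM in experimental mucosa, against 45.8 and 49.1 CPM in control mucosa, and PTGER2, a prostaglandin E2 receptor, at 4.83 and 2.23 CPM in experimental mucosa, against 39 and 22.5 CPM in control mucosa. These 2 protease-activated receptors were higher and the other 3 receptors lower, with adjusted p-values of 0.000396 to 0.00254 over the 5 genes. The list of neurotransmitter and peptide receptors had 4 higher and 5 lower of 43, a share of 20.9% and near that of all genes.

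Immune receptors were called in both directions. TNF receptors had 3 higher and 2 lower of 18 (27.8%). Pattern recognition receptors had 2 higher and 4 lower of 25 (24%, near the 21.7% of all genes), which became 4 and 1 with library totals alone. CCR9, the gut-homing receptor of lymphocytes, stood at 3.39 and 1.21 CPM in experimental mucosa, against 35.2 and 31.1 CPM in control mucosa (log2 fold change -3.84 ± 0.64, adjusted p = 0.00225). ACKR4, a scavenger of homeostatic chemokines, was at 1.1 and 0.649 CPM in experimental mucosa, against 22.4 and 29.8 CPM in control mucosa (log2 fold change -4.87 ± 0.49, adjusted p = 0.000128). ACKR1, a chemokine binder of venules, was higher, at 56.5 and 50.7 CPM in experimental mucosa, against 12 and 11.2 CPM in control mucosa, beside the higher endothelial markers. Chemokine receptors had 2 higher and 5 lower of 19, and 2 and 2 with library totals alone. TLR4, the receptor of bacterial lipopolysaccharide, read 227 and 201 CPM in experimental mucosa, against 33.6 and 24 CPM in control mucosa (log2 fold change 2.89 ± 0.41, adjusted p = 0.000839), whereas NLRP6, an inflammasome sensor of gut epithelium, read 1.02 and 1.21 CPM in experimental mucosa, against 167 and 35.2 CPM in control mucosa (log2 fold change -6.50 ± 0.91, adjusted p = 0.000837). Interleukin and cytokine receptors had 3 of 44 members called (6.82%), below the 21.7% of all genes. Of 34 purinergic receptors and ectonucleotidases 3 were higher and 10 lower, and 3 and 1 with library totals alone. ADA, which deaminates adenosine, was at 119 and 108 CPM in experimental mucosa, against 13.7 and 27 CPM in control mucosa (log2 fold change 2.48 ± 0.46, adjusted p = 0.00391), while ENTPD8, an ectonucleotidase of apical membranes, was at 4.75 and 5.66 CPM in experimental mucosa, against 82 and 25.3 CPM in control mucosa (log2 fold change -3.37 ± 0.58, adjusted p = 0.00353). Over all 337 receptors, 35 were higher and 24 lower without experimental replicate 1, and 22 and 13 without experimental replicate 2.

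Among transcription factors, the Grainyhead, OVOL, ZEB, SNAIL and TWIST list had 6 higher and none lower of 14, under each scaling tried. GRHL3, which drives barrier formation in urothelium and epidermis, stood at 232 and 407 CPM in experimental mucosa, against 1.2 and 4.68 CPM in control mucosa (log2 fold change 6.83 ± 1.0, adjusted p = 0.00111). GRHL1, a relative that acts on desmosomal genes, read 5.42 and 8.16 CPM in experimental mucosa, against 0.218 and 0.187 CPM in control mucosa, a ratio of 32.6 with a 95% counting interval of 10.9 to 160. TWIST2, a mesenchymal factor, was at 5.09 and 17.7 CPM in experimental mucosa, against 0.653 and 0.375 CPM in control mucosa (log2 fold change 4.37 ± 0.77, adjusted p = 0.00314). The higher members thus included factors of epithelium and of mesenchyme.

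GATA, T-box and PAX factors had 6 higher and 2 lower of 16. GATA3, a factor of luminal urothelium, stood at 133 and 198 CPM in experimental mucosa, against 10 and 2.44 CPM in control mucosa (log2 fold change 4.69 ± 0.62, adjusted p = 0.000602), and GATA2 at 43.5 and 50.6 CPM in experimental mucosa, against 10.2 and 4.31 CPM in control mucosa. GATA6, a factor of endoderm and gut, was lower, at 4.83 and 9.27 CPM in experimental mucosa, against 69.5 and 34.3 CPM in control mucosa (log2 fold change -2.88 ± 0.47, adjusted p = 0.00207), and GATA5, its relative, was at 0 and 0.464 CPM in experimental mucosa, against 15.5 and 13.7 CPM in control mucosa. Within 1 family, 2 members were higher and 2 lower in both experimental libraries. TBX2, a factor of urogenital mesenchyme, read 27.6 and 58 CPM in experimental mucosa, against 2.72 and 3.94 CPM in control mucosa (log2 fold change 3.70 ± 0.50, adjusted p = 0.000705), and PAX9, a factor of squamous foregut epithelium, read 8.73 and 6.96 CPM in experimental mucosa, against 0.218 and 0.375 CPM in control mucosa. Of 19 forkhead factors 3 were higher and 1 lower, a share of 21.1% and near that of all genes. FOXA1, a pioneer factor of luminal urothelium, was at 275 and 364 CPM in experimental mucosa, against 41.9 and 5.62 CPM in control mucosa (log2 fold change 3.73 ± 0.77, adjusted p = 0.007), and FOXF1, a factor of visceral mesenchyme, at 110.1 and 217 CPM in experimental mucosa, against 32.5 and 21.9 CPM in control mucosa (log2 fold change 2.58 ± 0.43, adjusted p = 0.00227).

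Nuclear receptors had 9 higher and 9 lower of 39, and 12 of these 18 calls held in all 4 fits that left out a library. PPARG, which promotes terminal differentiation of urothelium, stood at 291 and 393 CPM in experimental mucosa, against 14.2 and 27.5 CPM in control mucosa (log2 fold change 4.04 ± 0.50, adjusted p = 0.000389). RARB, a retinoic acid receptor, read 54.8 and 60.3 CPM in experimental mucosa, against 2.4 and 4.68 CPM in control mucosa (log2 fold change 4.05 ± 0.43, adjusted p = 0.000173). The lower members included receptors of gut and liver. HNF4G, a factor of gut and liver, was at 2.46 and 1.3 CPM in experimental mucosa, against 352 and 95.6 CPM in control mucosa (log2 fold change -6.88 ± 0.85, adjusted p = 0.000389), and NR5A2, a factor of pancreas, liver and gut crypts, at 4.24 and 4.54 CPM in experimental mucosa, against 108 and 49.6 CPM in control mucosa. NR1I2, the xenobiotic sensor PXR, read 11.6 and 8.99 CPM in experimental mucosa, against 298 and 169 CPM in control mucosa (log2 fold change -4.50 ± 0.48, adjusted p = 0.000188), and its low experimental level was still above the 1.05 and 0.672 CPM of native bladder.

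Homeobox, helix-loop-helix and other factors held further single genes that separated the groups. NKX2-3, a factor of gut mesenchyme and its vessels, stood at 0.0848 and 0 CPM in experimental mucosa, against 33.8 and 33.9 CPM in control mucosa, a ratio of control to experimental counts of 764 with a 95% counting interval of 136 to 30200. ATOH1, which commits gut cells to secretory fates, was at 0 counts in experimental mucosa and at 47.7 and 27.2 CPM in control mucosa, at least 302-fold lower. CREB3L3, a factor of lipid metabolism in liver and gut, read 0.339 and 0.278 CPM in experimental mucosa, against 110.3 and 37.9 CPM in control mucosa (log2 fold change -7.85 ± 0.80, adjusted p = 0.000146). These 3 had almost no reads in experimental mucosa. IRX3, an Iroquois factor, had 4.66 and 3.52 CPM in experimental mucosa and 0 counts in control mucosa, at least 19.9-fold higher. ELF5, an ETS factor of glandular and stratified epithelium, was at 12.7 and 13.2 CPM in experimental mucosa, against 0.327 and 0.562 CPM in control mucosa (log2 fold change 4.90 ± 0.57, adjusted p = 0.000289), and POU2F3, the master factor of tuft cells, which stratified epithelium also expresses, at 10.4 and 7.97 CPM in experimental mucosa, against 1.09 and 0.937 CPM in control mucosa. AHRR, the repressor of the aryl hydrocarbon receptor, was at 74.2 and 130.2 CPM in experimental mucosa, against 15.9 and 10.7 CPM in control mucosa (log2 fold change 2.93 ± 0.42, adjusted p = 0.000941). TEAD, SMAD, SRF and myocardin factors had 6 higher and none lower of 26, a share of 23.1% and near the 21.7% of all genes. In the 4 neobladder libraries alone 2 were higher. Over all 324 factors, 35 were higher and 18 lower without experimental replicate 1, and 26 and 16 without experimental replicate 2.

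**Figure D3:**
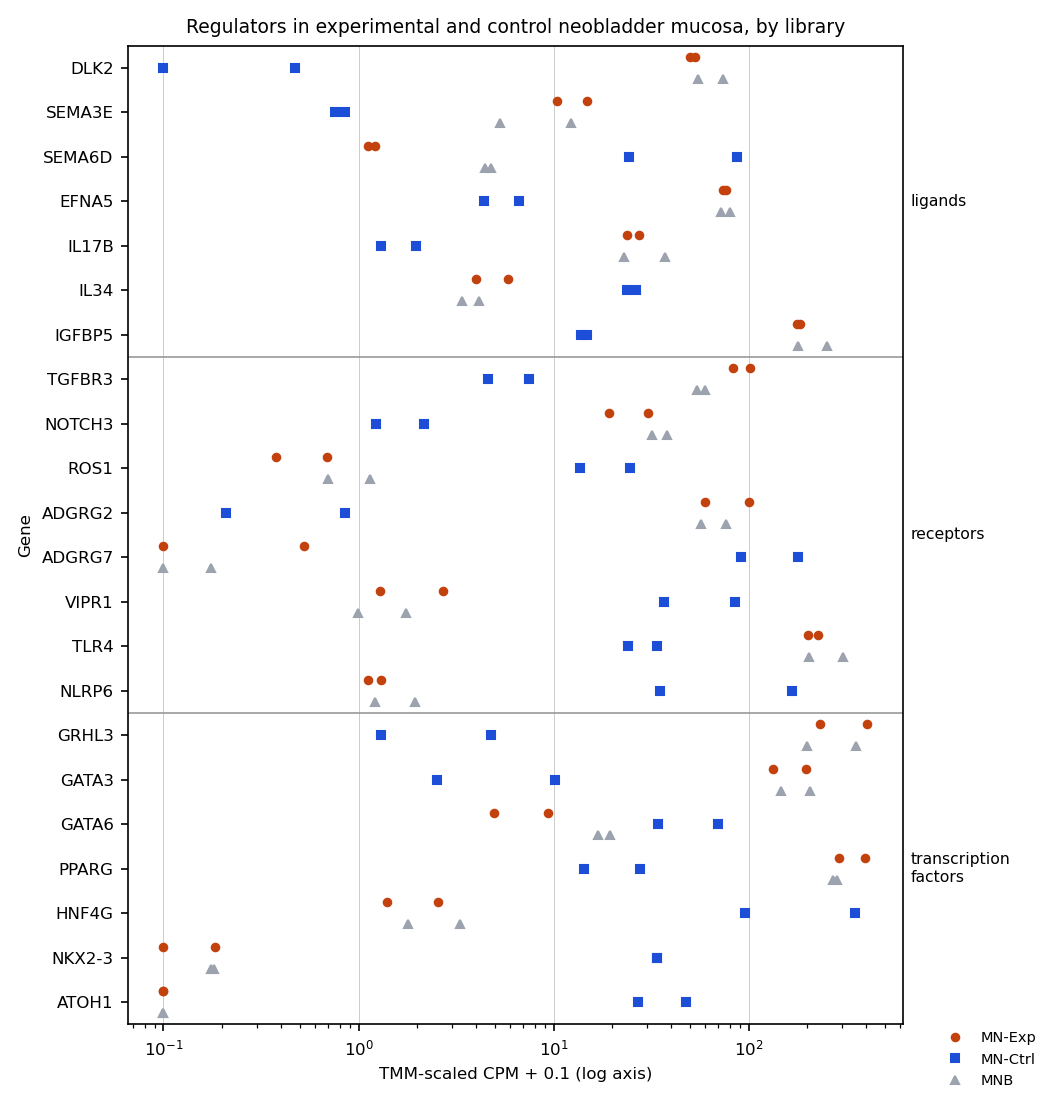
TMM-scaled CPM plus 0.1 (log axis) of 22 ligands, receptors and transcription factors in each library, with MN-Exp drawn above MN-Ctrl and native bladder (MNB) below both. Each point is 1 library, and in every gene drawn both MN-Exp points lie on the same side of both MN-Ctrl points, as with GRHL3 at 232 and 407 CPM in experimental mucosa, against 1.2 and 4.68 CPM in control mucosa.

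Channels that sense stretch or pass calcium were called higher more often than lower, 9 against 4 of 27. Their median log2 fold change was 0.9, but 0.17 without control replicate 2 and 1.82 without control replicate 1. For all genes these medians were 0.11, 0.07 and 0.27, so the size of the shift depends on the control library used. TRPV4, an osmotic and stretch sensor of urothelium, stood at 37.9 and 52.7 CPM in experimental mucosa, against 3.92 and 0.937 CPM in control mucosa (log2 fold change 4.13 ± 0.81, adjusted p = 0.0054). PIEZO1, a channel gated by membrane tension, read 29.7 and 28.8 CPM in experimental mucosa, against 6.53 and 3 CPM in control mucosa (log2 fold change 2.58 ± 0.44, adjusted p = 0.00254). TRPV6, an apical calcium channel, was at 20.7 and 35 CPM in experimental mucosa, against 1.63 and 3.75 CPM in control mucosa. All 3 were low but detected in control mucosa. Potassium and chloride channels were split between the groups. KCNK1, a background potassium channel, was at 271 and 347 CPM in experimental mucosa, against 44.9 and 48.3 CPM in control mucosa (log2 fold change 2.73 ± 0.40, adjusted p = 0.00105), whereas KCNJ13, an inward rectifier, was at 2.03 and 1.21 CPM in experimental mucosa, against 80.8 and 44.8 CPM in control mucosa (log2 fold change -5.26 ± 0.50, adjusted p = 9.8e-05). CFTR, the chloride channel of cyclic AMP-driven secretion, fell to 1.02 and 0.0927 CPM in experimental mucosa, against 35.8 and 14.8 CPM in control mucosa (log2 fold change -5.46 ± 0.87, adjusted p = 0.00182). CLCA1, a secreted goblet cell protein, was at 80.5 and 11.3 CPM in experimental mucosa, against 10340 and 1672 CPM in control mucosa, and CLCA2, its relative in stratified epithelium, at 178 and 133 CPM in experimental mucosa, against 16.8 and 6.56 CPM in control mucosa (log2 fold change 3.71 ± 0.64, adjusted p = 0.00271). The experimental level of CLCA2 also stood above the 31.7 and 24.6 CPM of native bladder.

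Sodium pump genes were called in both directions. ATP1B1, a beta subunit, stood at 86.7 and 83.6 CPM in experimental mucosa, against 588 and 319.7 CPM in control mucosa (log2 fold change -2.41 ± 0.45, adjusted p = 0.00386). FXYD3, a small regulator of the pump, was higher, at 483 and 497 CPM in experimental mucosa, against 56.5 and 73.5 CPM in control mucosa (log2 fold change 2.92 ± 0.45, adjusted p = 0.00142). The beta subunit and the regulator thus moved in opposite directions. The ATP1B1 call was lost without experimental replicate 2 (adjusted p = 0.0631). Connexins were divided as well. GJA1, the connexin of muscle and stroma, was at 38.7 and 39.1 CPM in experimental mucosa, against 11.1 and 5.81 CPM in control mucosa, and GJB1, a connexin of gut and liver epithelium, at 0.17 and 0.278 CPM in experimental mucosa, against 18.3 and 18 CPM in control mucosa, with adjusted p-values of 0.000534 to 0.00466.

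Carriers of organic acids, zinc and nucleosides had more lower than higher calls under TMM scaling and not with library totals alone. SLC13A2, the apical dicarboxylate carrier, was at 0 counts in experimental mucosa and at 164 and 51.1 CPM in control mucosa, at least 922-fold lower. SLC13A1, the sodium sulphate carrier, stood at 0.254 and 0.185 CPM in experimental mucosa, against 262 and 122 CPM in control mucosa (log2 fold change -9.69 ± 0.69, adjusted p = 2.94e-05). SLC5A12, a sodium-coupled lactate carrier, read 0.424 and 0 CPM in experimental mucosa, against 354 and 254 CPM in control mucosa (log2 fold change -10.36 ± 0.96, adjusted p = 9.39e-05). Of 22 monocarboxylate, dicarboxylate and phosphate carriers 4 were higher and 9 lower, and 5 and 5 with library totals alone. SLC16A12, a creatine carrier, was 1 of the higher members, at 10.9 and 40.4 CPM in experimental mucosa, against 0.98 and 0.75 CPM in control mucosa (log2 fold change 4.84 ± 0.71, adjusted p = 0.0011). Zinc, copper and manganese carriers had 2 higher and 5 lower of 26, and 4 and 3 with library totals alone. SLC39A4, the zinc importer of the apical enterocyte membrane, was at 1.27 and 1.95 CPM in experimental mucosa, against 134 and 92.6 CPM in control mucosa (log2 fold change -6.13 ± 0.48, adjusted p = 4.44e-05), and SLC39A5, a basolateral importer, at 0.424 and 0.371 CPM in experimental mucosa, against 239.8 and 333 CPM in control mucosa. SLC30A3, a vesicular zinc exporter, was higher, at 34.9 and 49.8 CPM in experimental mucosa, against 3.38 and 0.937 CPM in control mucosa (log2 fold change 4.21 ± 0.62, adjusted p = 0.00115). Nucleoside and vitamin carriers had 2 higher and 6 lower of 17, and 3 and 3 with library totals alone. SLC28A2, a concentrative nucleoside carrier, read 4.41 and 4.82 CPM in experimental mucosa, against 217 and 126 CPM in control mucosa, and SLC23A1, an epithelial vitamin C carrier, 8.98 and 8.53 CPM in experimental mucosa, against 86.9 and 52.3 CPM in control mucosa. ABCC5, an exporter of cyclic nucleotides, was higher, at 400.5 and 278 CPM in experimental mucosa, against 24.4 and 42.7 CPM in control mucosa (log2 fold change 3.34 ± 0.48, adjusted p = 0.000904). Over all 314 transporters, 33 were higher and 29 lower without experimental replicate 1, and 22 and 24 without experimental replicate 2.

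Of 42 genes of arginine, urea cycle, polyamine, glutamine and proline metabolism 4 were higher and 16 lower, and 6 and 8 with library totals alone. CPS1, which makes carbamoyl phosphate in mitochondria, stood at 0.509 and 0.185 CPM in experimental mucosa, against 448 and 88.6 CPM in control mucosa (log2 fold change -9.53 ± 1.07, adjusted p = 0.000239). OTC, which joins carbamoyl phosphate to ornithine to give citrulline, read 0.339 and 0.0927 CPM in experimental mucosa, against 429.7 and 432 CPM in control mucosa (log2 fold change -10.86 ± 0.72, adjusted p = 2.73e-05). SLC25A15, which carries ornithine into mitochondria, was at 9.49 and 14.8 CPM in experimental mucosa, against 194 and 86.2 CPM in control mucosa (log2 fold change -3.53 ± 0.51, adjusted p = 0.00102). As background, the small intestine makes citrulline by these steps for other organs. ASS1, which uses citrulline on the way to arginine, was at 15.1 and 10.6 CPM in experimental mucosa, against 971 and 1481 CPM in control mucosa (log2 fold change -6.58 ± 0.54, adjusted p = 4.66e-05). AGMAT, named for agmatinase, was at 0 counts in experimental mucosa and at 121 and 224 CPM in control mucosa, at least 1190-fold lower. All 5 genes were lower in both experimental libraries, and the native bladder libraries were as low, with 0 and 0.149 CPM for OTC and 20.4 and 20.8 CPM for ASS1. AZIN2, a regulator of polyamine synthesis, was higher, at 17.4 and 16.9 CPM in experimental mucosa, against 4.25 and 1.87 CPM in control mucosa (log2 fold change 2.44 ± 0.50, adjusted p = 0.00705).

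Of 26 genes of gluconeogenesis, fructose, galactose and glycogen metabolism 1 was higher and 7 lower, 6 of the 7 in all 4 fits that left out a library. With library totals alone 3 were higher and 6 lower. KHK, which phosphorylates fructose, stood at 36.6 and 31.3 CPM in experimental mucosa, against 529 and 1238 CPM in control mucosa (log2 fold change -4.70 ± 0.53, adjusted p = 0.000251). FBP1, an enzyme of gluconeogenesis, was at 13.2 and 29.4 CPM in experimental mucosa, against 343 and 453 CPM in control mucosa. Both genes were lower in both experimental libraries, which kept a low level of each. PGM5, a phosphoglucomutase relative of muscle adhesion sites, was the 1 higher member, at 179.9 and 202 CPM in experimental mucosa, against 19.9 and 25.7 CPM in control mucosa (log2 fold change 3.07 ± 0.37, adjusted p = 0.000341), beside the higher smooth muscle markers. In glycolysis, HKDC1, a hexokinase-like enzyme, was at 2.46 and 1.58 CPM in experimental mucosa, against 368 and 72.1 CPM in control mucosa (log2 fold change -6.76 ± 0.79, adjusted p = 0.000302), while HK1, the common hexokinase, was at 251 and 227 CPM in experimental mucosa, against 87.3 and 56.6 CPM in control mucosa. The HK1 call was lost without experimental replicate 1 (adjusted p = 0.0657) and without experimental replicate 2 (0.0599).

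Lipid and mitochondrial families were called in both directions. Cholesterol synthesis and uptake had 1 higher and 12 lower of 30, and 2 and 2 with library totals alone, and 2 of the lower calls held in all 4 fits that left out a library. SOAT2, which esterifies cholesterol in enterocytes, stood at 1.27 and 0.556 CPM in experimental mucosa, against 95 and 41.8 CPM in control mucosa (log2 fold change -6.20 ± 0.74, adjusted p = 0.000331), and STARD4, a sterol carrier, at 2.71 and 2.5 CPM in experimental mucosa, against 33.4 and 24.6 CPM in control mucosa. The tricarboxylic acid cycle list had 3 higher and 10 lower of 33, and 3 and 2 with library totals alone. ME1, the cytosolic malic enzyme, read 113 and 129 CPM in experimental mucosa, against 10 and 2.06 CPM in control mucosa (log2 fold change 4.28 ± 0.61, adjusted p = 0.000928), and ME2, a mitochondrial one, 48.7 and 46.9 CPM in experimental mucosa, against 423 and 224 CPM in control mucosa (log2 fold change -2.76 ± 0.42, adjusted p = 0.0014). The 2 malic enzymes thus moved in opposite directions. Fatty acid synthesis, elongation and desaturation had 2 higher and 2 lower of 22 (18.2%), and fatty acid oxidation 3 and 5 of 39 (20.5%). Both shares were near the 21.7% of all genes. In fatty acid metabolism ACSL1, a long-chain acyl-CoA synthetase, was higher, at 468 and 441 CPM in experimental mucosa, against 59.8 and 14.2 CPM in control mucosa (log2 fold change 3.61 ± 0.62, adjusted p = 0.00262), and ACADL, the long-chain acyl-CoA dehydrogenase, lower, at 16 and 8.35 CPM in experimental mucosa, against 215 and 145 CPM in control mucosa (log2 fold change -3.88 ± 0.47, adjusted p = 0.000368). PLA2G12B, a phospholipase relative needed for lipoprotein secretion in mice, was at 0.0848 and 0 CPM in experimental mucosa, against 106 and 302 CPM in control mucosa, a ratio of control to experimental counts of 4030 with a 95% counting interval of 722 to 159000.

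The serine, glycine, folate and methionine list had 4 higher and 8 lower of 39, and 7 and 3 with library totals alone. PHGDH, the first enzyme of serine synthesis, stood at 74.6 and 93.6 CPM in experimental mucosa, against 11 and 6.37 CPM in control mucosa (log2 fold change 3.26 ± 0.42, adjusted p = 0.000534), and PSAT1, the next enzyme, at 228 and 278 CPM in experimental mucosa, against 14.7 and 21.6 CPM in control mucosa (log2 fold change 3.81 ± 0.41, adjusted p = 0.000188). SDSL, a serine dehydratase relative, was at 0 counts in experimental mucosa and at 45.7 and 81.9 CPM in control mucosa, at least 444-fold lower. CTH, which makes cysteine from cystathionine, was at 5.42 and 4.82 CPM in experimental mucosa, against 128 and 81.3 CPM in control mucosa (log2 fold change -4.35 ± 0.42, adjusted p = 0.000102). Each of the 4 was called in all fits that left out a neobladder library.

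Redox and detoxification genes were split. NQO1, a quinone reductase, stood at 1716 and 1303 CPM in experimental mucosa, against 102 and 172 CPM in control mucosa (log2 fold change 3.46 ± 0.50, adjusted p = 0.000965). GGT6, a gamma-glutamyltransferase relative, read 34.6 and 50.6 CPM in experimental mucosa, against 0.327 and 0.937 CPM in control mucosa (log2 fold change 6.18 ± 0.59, adjusted p = 9.8e-05). MSRB3, a methionine sulphoxide reductase, was at 122 and 112 CPM in experimental mucosa, against 18.4 and 10.9 CPM in control mucosa, while MSRA, which reduces the other stereoisomer, was at 25.3 and 26.4 CPM in experimental mucosa, against 97.9 and 95.4 CPM in control mucosa. The 2 reductases moved in opposite directions, with adjusted p-values of 0.000737 to 0.00271. The glutathione, thioredoxin and peroxidase list had 5 higher and 14 lower of 48, 8 and 2 with library totals alone, and 1 of the lower calls held in all 4 fits that left out a library. HSD17B2, which inactivates oestradiol and testosterone, was at 828 and 1959 CPM in experimental mucosa, against 20 and 83.9 CPM in control mucosa (log2 fold change 4.75 ± 0.76, adjusted p = 0.00186). FMO1, a flavin monooxygenase, was at 87.9 and 172 CPM in experimental mucosa, against 6.32 and 5.25 CPM in control mucosa (log2 fold change 4.48 ± 0.49, adjusted p = 0.000215). MAOB, which oxidises amines, was lower, at 16.4 and 15.1 CPM in experimental mucosa, against 416 and 117 CPM in control mucosa (log2 fold change -4.08 ± 0.61, adjusted p = 0.00117), and so was AKR1E2, an aldo-keto reductase, at 13.7 and 14.1 CPM in experimental mucosa, against 244 and 303 CPM in control mucosa.

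Eicosanoid genes had 4 higher and 5 lower of 24, and 4 and 2 with library totals alone. PTGES, an inducible prostaglandin E synthase, stood at 505 and 578 CPM in experimental mucosa, against 116 and 206 CPM in control mucosa, and PTGS1, a cyclooxygenase, at 68.6 and 75.7 CPM in experimental mucosa, against 25.8 and 9.93 CPM in control mucosa. ALOX5, the first enzyme of leukotriene synthesis, was lower, at 18.7 and 14.7 CPM in experimental mucosa, against 75.1 and 54 CPM in control mucosa, and LTA4H, a later enzyme of that branch, at 107 and 99.9 CPM in experimental mucosa, against 419.9 and 462 CPM in control mucosa. The 2 prostaglandin genes were higher and the 2 leukotriene genes lower in both experimental libraries, with adjusted p-values of 0.00316 to 0.0285. All 4 calls were lost without experimental replicate 2, when adjusted p was 0.114 for PTGES, 0.132 for PTGS1, 0.0698 for ALOX5 and 0.059 for LTA4H. PTGES and PTGS1 also lost theirs without experimental replicate 1 (0.0685 and 0.0926), and PTGS1 without control replicate 2 (0.109). ALOX5 is a myeloid gene, and the myeloid markers were lower in the same libraries.

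Glycosyltransferases of fucosyl, sialyl and mucin-type chains had 10 higher and 11 lower of 62. B3GNT3, which extends core 1 chains, stood at 276 and 252 CPM in experimental mucosa, against 23.5 and 16.1 CPM in control mucosa (log2 fold change 3.73 ± 0.40, adjusted p = 0.000173), and B4GALT4, a galactosyltransferase, at 172 and 196 CPM in experimental mucosa, against 7.62 and 10.3 CPM in control mucosa. ST6GALNAC1, which makes the sialyl-Tn cap, was lower, at 1.44 and 1.02 CPM in experimental mucosa, against 203 and 96.7 CPM in control mucosa (log2 fold change -6.91 ± 0.99, adjusted p = 0.000935). A4GNT, which caps gland mucin chains, was at 0 counts in experimental mucosa and at 75 and 18 CPM in control mucosa, at least 407-fold lower. Higher and lower calls thus fell on different members of the family, and with library totals alone 13 were higher and 5 lower. Proteoglycan genes had 10 higher and 4 lower of 51. SDC1, a heparan sulphate proteoglycan of stratified epithelium, was at 1478 and 1822 CPM in experimental mucosa, against 183 and 87.5 CPM in control mucosa (log2 fold change 3.61 ± 0.55, adjusted p = 0.00139), and HS3ST1, which sulphates heparan chains, at 245 and 542 CPM in experimental mucosa, against 21.1 and 36.4 CPM in control mucosa (log2 fold change 3.78 ± 0.63, adjusted p = 0.00231). Over all 699 metabolic genes, 48 were higher and 67 lower without experimental replicate 1, 34 and 48 without experimental replicate 2, 140 and 200 without control replicate 1, and 69 and 195 without control replicate 2.

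**Figure D4:**
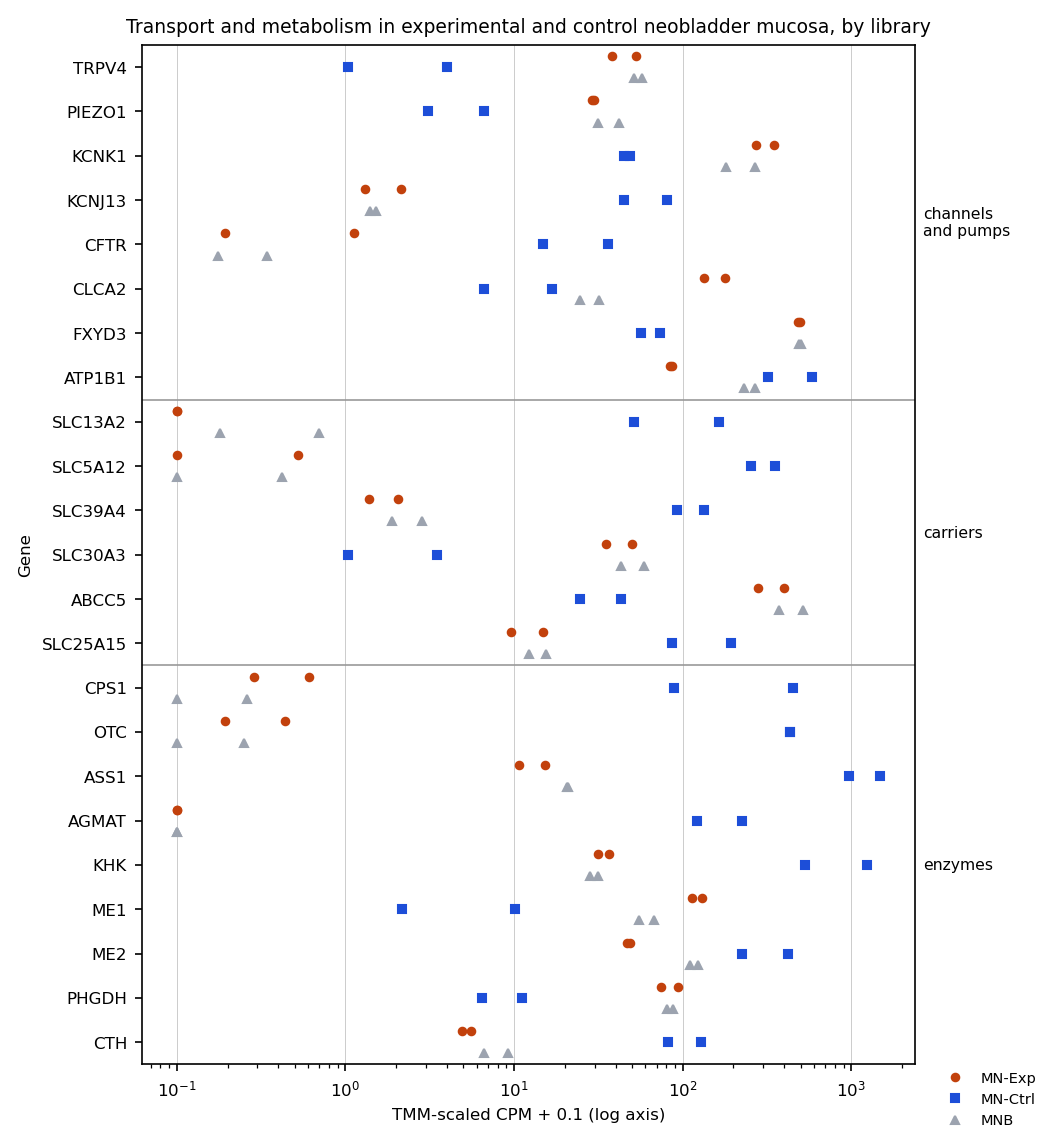
TMM-scaled CPM plus 0.1 (log axis) of 23 channels, transporters and enzymes in each library, with MN-Exp drawn above MN-Ctrl and native bladder (MNB) below both. Each point is 1 library, and a gene at 0 counts, such as AGMAT or SLC13A2 in MN-Exp, sits at 0.1.

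Proteases and surface proteins outside these classes were also called. Of 34 ADAM and ADAMTS proteases 10 were higher and 1 lower, and 7 of the higher calls held in all 4 fits that left out a library. ADAM28, a membrane metalloprotease, stood at 1542 and 1285 CPM in experimental mucosa, against 28.6 and 17.8 CPM in control mucosa (log2 fold change 5.92 ± 0.58, adjusted p = 0.000104), and ADAMTS1, a secreted protease of versican, at 48.7 and 151 CPM in experimental mucosa, against 4.46 and 6.93 CPM in control mucosa (log2 fold change 4.15 ± 0.62, adjusted p = 0.00128). S100 proteins and annexins had 9 higher and 2 lower of 19. ANXA9 read 84.2 and 98.8 CPM in experimental mucosa, against 1.09 and 1.12 CPM in control mucosa (log2 fold change 6.36 ± 0.44, adjusted p = 2.92e-05), and ANXA4 was lower, at 224 and 156 CPM in experimental mucosa, against 1143 and 1100 CPM in control mucosa, a call lost without experimental replicate 2 (adjusted p = 0.0603). FAT2, a large protocadherin of stratified epithelium, was at 65.1 and 77.2 CPM in experimental mucosa, against 0.762 and 0.937 CPM in control mucosa (log2 fold change 6.39 ± 1.14, adjusted p = 0.00335), while CDH17, the liver-intestine cadherin, was at 3.48 and 2.23 CPM in experimental mucosa, against 862 and 222 CPM in control mucosa (log2 fold change -7.56 ± 0.75, adjusted p = 0.000121). Cathepsins and gasdermins had 1 higher and 6 lower of 21, and 2 and 3 with library totals alone. GSDMB, a gasdermin of a family that forms pores in dying cells, was at 1.19 and 0.278 CPM in experimental mucosa, against 393 and 352 CPM in control mucosa (log2 fold change -8.95 ± 0.76, adjusted p = 6.29e-05), and GSDMD, the common effector, at 54.7 and 57.1 CPM in experimental mucosa, against 244 and 406 CPM in control mucosa (log2 fold change -2.54 ± 0.40, adjusted p = 0.00148).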

How the data were processed

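RNA was read in 8 libraries, 2 from each of 4 groups: experimental neobladder mucosa (MN-Exp), control neobladder mucosa (MN-Ctrl), native bladder mucosa (MNB) and normal peritoneum (NP). Per the labels' protocols, cDNA was made with Smart-seq2, and libraries were made with a TruSeq kit and sequenced on a HiSeq X instrument. The deposited values are raw counts per Ensembl gene, 1 table per library, and the submitters' processing notes name Trim Galore, HISAT2, HTSeq 0.11.1 and the Sscrofa11.1 assembly without giving settings. Whether strand was used in counting is not given in the sources used here, so overlapping and antisense genes, and reads shared by near-identical copies, are uncertain.

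Gene symbols were matched by Ensembl ID. Genomic spans came from RefSeq genes of Sscrofa11.1, matched by symbol and only where RefSeq held the symbol once. Genes with no symbol or a repeated symbol therefore have no span. Of 31907 genes, 16549 passed filterByExpr over the 4 groups. Counts were scaled by TMM and fitted with edgeR 4.0.16 (limma 3.58.1, R 4.3.3) by robust quasi-likelihood over all 8 libraries with 4 residual degrees of freedom, so the other 4 libraries share in the estimate of spread. A call is an adjusted p under 0.05 (Benjamini-Hochberg) over all genes tested, two-sided. Printed adjusted p-values come from this edgeR test unless another is named. The script was tested on simulated data. No pair of libraries held identical values. Alternatives were other scalings, DESeq2 1.42.0, no filter, fewer libraries, a 1.5-fold test, a replicate block and a gene length offset.

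Named genes came from the markers, the 15 largest changes in each direction (called, at least 5 CPM on average over the 4 neobladder libraries, groups not overlapping) and, in each of 75 gene families, up to 4 called members of smallest p in each direction and the 2 most abundant members. The genes, families and 14 marker lists were chosen with earlier results of these data known, so their direction is not independent evidence. A promoter motif search and a coding length offset were not run, as the sequences they need were not used here.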

Additional observations from a re-analysis of the deposited data

How the results depend on the processing

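None of the set of 146 genes, which leaves out S100A8, MMP9 and COL1A2, changed direction under any alternative run. The set holds called genes only, picked mostly for a small p or a large change, which favours this result. The total of 3584 calls came to 3622 with DESeq2 size factors, 3581 with upper quartile factors, 3621 with library totals, 4610 by DESeq2, 4399 with no filter, 2649 against a 1.5-fold change and 2458 from the 4 neobladder libraries alone. Library totals gave 2791 higher and 830 lower, and the 4 libraries alone 1028 higher. Leaving out 1 library gave 1292 to 6424 calls, 673 to 3241 higher and 619 to 3183 lower, and the 1 library left in that group is then assumed to vary like the other groups. The cause of this range was not tested. Under the length offset 2816 of 11643 genes were called, against 2664 of the same genes without it.

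Of the 146 genes, 6 lost their call with library totals. ATOH1 lost it by DESeq2 (adjusted p = 0.0615), PTGS1 against a 1.5-fold change (0.0511), and HK1, PTGES and JAG1 with the 4 libraries alone (0.051 to 0.124). Counts over families and marker lists were less stable, as 117 of 178 moved by over 1.5 times, or to or from 0, without experimental replicate 2. Across genes, the deviations of same-numbered libraries correlated at -0.08 to 0.091 over 6 pairs of groups. With a single difference per group, these values cannot decide whether same-numbered libraries were paired. With the replicate block 3140 genes were called, 1526 higher and 1614 lower, and 2436 with the block and the length offset together. A count of 3 equals 0.254 to 0.562 CPM in the neobladder libraries, and lower levels cannot be told from 0 at this depth. The coding length offset was not run.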

Other observations

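Against native bladder mucosa, the experimental mucosa stood at least 3-fold higher in both libraries in 4 of 494 eligible genes of 5 CPM or more and at least 3-fold lower in 5. Eligible genes were picked by their change or abundance in the neobladder libraries, so these counts are not shares of all genes tested. The genes named here were chosen after their values were seen, and the difference from native bladder carries no test here. MMP9, a gelatinase of neutrophils and remodelling tissue, had 454 and 198 CPM in experimental mucosa, against 30.6 and 36.9 CPM in native bladder and 69.6 and 32.2 CPM in control mucosa. IVL had 641 and 444 CPM in native bladder, below both experimental libraries. COL1A2, a chain of type I collagen, had 1344 and 1309 CPM in experimental mucosa, against 4650 and 4776 CPM in native bladder, 772 and 252 CPM in control mucosa and 18530 and 20530 CPM in peritoneum. It was not called between experimental and control mucosa (adjusted p = 0.156, but 0.000124 without control replicate 1), and the MMP9 call was lost without experimental replicate 1 (adjusted p = 0.0524).

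LPL, the lipase of capillary walls that releases fatty acids, had 3.31 and 3.99 CPM in experimental mucosa, against 22.3 and 27.6 CPM in native bladder and 203 and 68.6 CPM in control mucosa. PAICS, an enzyme of purine synthesis, had 4.92 and 5.38 CPM in experimental mucosa, against 16.4 and 17.2 CPM in native bladder and 34.4 and 29.2 CPM in control mucosa. Both genes were lower in the 2 experimental libraries than in any other library of the series. The neutrophil markers were higher in the experimental libraries too, and their part in the MMP9 level was not tested.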
